A study of Homo sapiens with 7 samples.

Results

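The genes described here belong to families of transcription factors that set up lineages in the embryo: the HOX genes and the PAX, SOX, FOX, GATA, LHX, MSX, OTX, IRX, HAND, PITX and NKX families. They were chosen by symbol alone, and each needed a probe with a detection p-value under 0.01 on at least 1 array, which is called above background below. The platform annotation used here held 133 such symbols on 197 probes, and 46 of them were above background, among 7982 named genes above background in all. Of the 46 genes, 24 were above background on all 7 arrays and 22 on some of them, 9 of these on exactly 1 array. The remaining 87 were not above background on any array. The T-box, DLX, sine oculis and MEIS families, and the SOX genes apart from the noncoding SOX1-OT, were not analysed here, because the annotation used did not name their probes. A choice by symbol also takes in FOXL2NB, a gene named for its position beside FOXL2 that is no forkhead factor, and, among those not above background, 6 lncRNA symbols and 1 pseudogene.

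Expression was measured in H1, an established human embryonic stem cell line, on 1 Illumina bead array for each of 7 media after 2 days. All cultures grew on matrigel in E8, a defined medium without albumin, and all had 5 μM of the ROCK inhibitor Y27632 for 24 hours at passage. The media were plain E8 or E8 with 1% Albumin, 1.6% AlbuMAX (bovine albumin that carries lipid), 1% CDL (a lipid concentrate of defined content), hCDL (its homemade counterpart), 1 μM LPA, or LPA + Albumin at the same doses. LPA is lysophosphatidic acid, here the 18:1 form, a phospholipid that signals through cell-surface receptors. The labels give hCDL as 0.1x in the treatment and as 0.01% in the sample title. No medium has a second culture, so a single medium was set against another without a test, and precision is limited by having so few arrays.

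Lineage factors bind DNA through a conserved domain, such as the forkhead of FOX proteins, the homeodomain of HOX, LHX, IRX, MSX and OTX proteins or the zinc fingers of GATA proteins. In pluripotent cells most of their promoters are rich in CpG, carry marks of Polycomb repression and stay silent until a lineage is entered. A few members are instead part of the pluripotent state or of general cell physiology, among them OTX2, FOXD3, FOXH1, the FOXO factors and the cell cycle factor FOXM1.

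Across the arrays, between 11722 and 12632 of 33866 probes were above background, and median raw intensities lay between 108.5 (E8) and 116.9 (hCDL). The cells carried the markers of their label: all 9 pluripotency genes with a named probe, POU5F1 and NANOG among them, were above background on all arrays. Their summed level stayed between 15.25 and 15.34 on the log2 scale, a sum led by the brightest probes, those of LIN28A, L1TD1 and PODXL. POU5F1 ranged from 10.29 in LPA + Albumin to 11.02 in CDL. NANOG ranged from 9.98 in LPA + Albumin to 10.34 in hCDL, and neither passed for LPA. Within the list PODXL, a surface sialomucin, rose with LPA by 0.55 (SE 0.0981, limma adjusted p = 0.00538). Of 23 named markers of other cell types, 12 were above background somewhere and 3 on all arrays: NES, KDR and PDGFRB, of the neuroectoderm, mesoderm and fibroblast lists. By list, 3 of 4 neuroectoderm, 2 of 2 mesoderm, 2 of 3 endoderm, 2 of 4 fibroblast, 2 of 4 trophoblast, 1 of 2 endothelial and 0 of 4 muscle markers were above background on some array. NES, CER1 and TWIST1, from the neuroectoderm, endoderm and fibroblast lists, rose with LPA. In bulk RNA, a change in the share of cells that express a gene and a change in its RNA per cell cannot be told apart.

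The number of lineage genes above background differed between media. It was 26 in E8, 29 in CDL, 29 in LPA, 31 in Albumin, 31 in hCDL, 33 in AlbuMAX and 40 in LPA + Albumin. The LPA + Albumin array stood highest and E8 lowest. These counts depend partly on the filter, since a member could enter through 1 array. FOXI2, FOXQ1 and HOXB3 entered through LPA + Albumin alone, and no member through E8 alone. Over all named genes the order was not the same. Above background were 6812 in E8, 6897 in CDL, 6920 in LPA, 6931 in AlbuMAX, 7018 in LPA + Albumin, 7165 in Albumin and 7185 in hCDL. The limit of detection sits among dim genes. FOXN1 and FOXQ1 were just inside it, each with a smallest detection p-value of 0.00779, and HOXD11 was just outside, at 0.0104.

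By family, 29 of 50 FOX symbols were above background, 16 of them on all arrays. For the IRX genes the counts were 5 of 6, with 4 on all arrays and the lncRNA IRX2-DT not above background, and for the LHX genes 3 of 8, with LHX4 on all arrays. Of 29 HOX genes 6 were above background, with HOXC6 alone on all arrays. GATA5, MSX1 and OTX2 were the single members above background of 6 GATA, 3 MSX and 2 OTX symbols. None of 10 PAX, 12 NKX, 3 HAND and 2 PITX symbols was above background on any array. Thus GATA2, GATA3, GATA6, HAND1 and MSX2, genes of trophectoderm, endoderm or amnion, and PAX6, an early neural factor, had no signal above background in any medium.

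**Figure D1:**
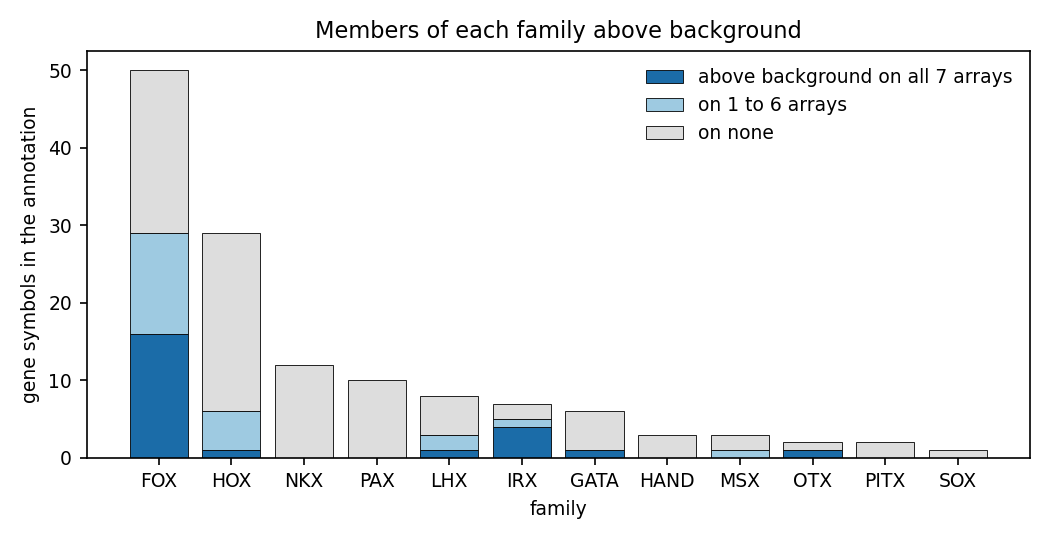
Symbols of each family in the annotation, split into those above background on all 7 arrays, on some arrays and on no array (vertical axis: number of symbols). FOX holds 29 of the 46 genes above background, and PAX, NKX, HAND, PITX and SOX-derived symbols hold none.

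Of the 46 genes, 4 rose and 0 fell with LPA: FOXD1, FOXL2NB, LHX8 and IRX4. LHX8 was above background only where LPA or AlbuMAX was present. It entered the set through those arrays alone, so its place among the 4 is not independent of the filter. The test was limma on an additive model of LPA, albumin and lipid mixture over 6 arrays, without AlbuMAX, adjusted over all 7982 genes and called at an adjusted p under 0.05. The members' share, 8.7%, lay near the background, since 6.64% of all named genes rose, and 4.32% fell. At an unadjusted limma p under 0.05, 8 members were higher and 1, FOXA2, was lower. Over all 7982 named genes, 1020 were higher and 1054 lower at that cutoff. LPA was present on 2 arrays and absent from 4, but the lipid mixture term takes up the level of CDL and hCDL. The LPA coefficient thus sets the 2 LPA arrays against E8 and Albumin only. The model's error of 2 degrees of freedom comes from the interaction of LPA with albumin and from CDL against hCDL. It therefore holds no spread between cultures of 1 medium.

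The promoters of the 4 genes that rose are shown because these members passed the LPA test. That test picked them, so their shared rise is no separate result. Each window runs from 250 bases before to 50 after the RefSeq start (GRCh38.p14), in the direction of the gene, with every CpG in capitals.

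FOXD1 (chr5:73448728-73449027, minus strand): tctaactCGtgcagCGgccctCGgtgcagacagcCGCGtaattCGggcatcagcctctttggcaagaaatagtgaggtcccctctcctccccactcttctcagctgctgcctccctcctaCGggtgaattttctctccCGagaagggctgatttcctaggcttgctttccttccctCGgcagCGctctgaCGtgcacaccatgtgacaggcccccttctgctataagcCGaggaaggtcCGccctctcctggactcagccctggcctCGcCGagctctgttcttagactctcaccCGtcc
FOXL2NB (chr3:138946967-138947266, plus strand): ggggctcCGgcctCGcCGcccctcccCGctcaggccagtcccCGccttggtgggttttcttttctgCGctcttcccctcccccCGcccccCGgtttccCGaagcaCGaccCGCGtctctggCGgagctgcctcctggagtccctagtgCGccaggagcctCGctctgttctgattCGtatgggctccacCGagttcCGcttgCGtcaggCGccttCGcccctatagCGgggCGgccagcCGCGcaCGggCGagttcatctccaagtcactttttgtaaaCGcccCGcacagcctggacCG
LHX8 (chr1:75128184-75128483, plus strand): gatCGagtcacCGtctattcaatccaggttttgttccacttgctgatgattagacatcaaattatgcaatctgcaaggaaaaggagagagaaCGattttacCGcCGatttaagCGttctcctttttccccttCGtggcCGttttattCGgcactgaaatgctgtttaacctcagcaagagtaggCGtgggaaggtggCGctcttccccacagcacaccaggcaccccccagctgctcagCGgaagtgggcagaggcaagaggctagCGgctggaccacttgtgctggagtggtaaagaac
IRX4 (chr5:1886896-1887195, minus strand): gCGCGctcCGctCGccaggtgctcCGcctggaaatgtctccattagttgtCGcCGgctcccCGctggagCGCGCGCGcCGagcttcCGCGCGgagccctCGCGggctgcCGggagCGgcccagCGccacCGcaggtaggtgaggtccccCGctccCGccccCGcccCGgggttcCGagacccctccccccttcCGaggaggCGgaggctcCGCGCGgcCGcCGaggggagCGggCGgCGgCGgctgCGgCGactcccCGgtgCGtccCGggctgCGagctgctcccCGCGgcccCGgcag

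CpG, the dinucleotide whose density goes with Polycomb binding in pluripotent cells, occurs 47 times in the IRX4 window and 30 times in that of FOXL2NB, but 16 times in FOXD1 and 13 times in LHX8. Of the 46 genes above background, 31 had a promoter in the RefSeq table, with a median of 32.0 CpG. The median was 21.0 over 61 members not above background and 14 over 27305 promoters of all genes. Motifs for regulators known to respond to LPA and serum, and the TATA box, were searched on both strands, and none was found in the 4 windows: the TEAD motif GGAATG, the AP-1 motif TGANTCA, the CArG box bound by SRF, and the TATA box, TATAAA. They occur in 14%, 7.76%, 1.29% and 12% of all promoters. FOXL2 and FOXL2NB start 80 bases apart on opposite strands of chromosome 3, so their windows share 179 bases.

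FOXD1, a forkhead factor of kidney stroma and retina in the mouse, differed most between media. Its log2 normalized intensity was 6.28 in E8, 6.53 in Albumin, 6.73 in CDL, 6.75 in hCDL, 8.26 in LPA, 8.96 in AlbuMAX and 9.52 in LPA + Albumin. The 3 media with LPA or AlbuMAX lay far above the other 4, which lay close together. It rose with LPA by 2.49 (SE 0.212, limma adjusted p = 4.45e-05), a 5.61-fold difference. LPA exceeded E8 by 3.94-fold, and LPA + Albumin exceeded Albumin by 7.98-fold.

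FOXL2NB stood at 8.09 in E8, 7.68 in Albumin, 7.56 in CDL, 7.75 in hCDL, 8.81 in LPA, 8.59 in AlbuMAX and 8.87 in LPA + Albumin. Both LPA arrays and AlbuMAX lay above all others, and E8 was the highest of the rest. The gene rose with LPA by 0.96 (SE 0.147, limma adjusted p = 0.00231). Its divergent neighbour FOXL2, a factor of ovarian granulosa cells, was dimmer: 5.36 in E8, 5.37 in Albumin, 4.97 in CDL, 4.93 in hCDL, 5.77 in LPA, 6.26 in AlbuMAX and 5.96 in LPA + Albumin. FOXL2 showed the same order of the 2 sets of media but missed the test, with an LPA difference of 0.50 (SE 0.236, limma adjusted p = 0.21). Signal above background came from AlbuMAX, LPA, LPA + Albumin and Albumin only.

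LHX8, a LIM-homeodomain factor of forebrain cholinergic neurons and of oocytes in the mouse, was above background only in AlbuMAX, LPA and LPA + Albumin. Its values were 4.69 in E8, 4.45 in Albumin, 4.41 in CDL, 4.58 in hCDL, 5.64 in LPA, 6.04 in AlbuMAX and 5.45 in LPA + Albumin. The 4 media without LPA or AlbuMAX lay below the limit of detection, so the LPA media were at least 1.22-fold higher. The fit passed at a limma adjusted p of 0.0426, but it used signals under the limit of detection on all 4 arrays without LPA, so only the bound describes the size. Without the Albumin array the call was lost, as it was without E8, LPA or LPA + Albumin. These are not separate checks. Leaving out E8 or LPA leaves LPA + Albumin minus Albumin, and leaving out Albumin or LPA + Albumin leaves LPA minus E8.

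IRX4, a factor of heart ventricle, stood at 8.65 in E8, 8.74 in Albumin, 8.59 in CDL, 8.54 in hCDL, 8.95 in LPA, 9.14 in AlbuMAX and 9.28 in LPA + Albumin. The groups did not overlap, though the gap between the highest array without LPA and the lowest with it was small. The LPA difference was 0.42 (SE 0.115, limma adjusted p = 0.0399). This call was lost without Albumin, CDL, hCDL or LPA + Albumin. Leaving out Albumin or LPA + Albumin leaves the same estimate, LPA minus E8, at 0.30. Leaving out CDL or hCDL changes the error but not the coefficient.

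**Figure D2:**
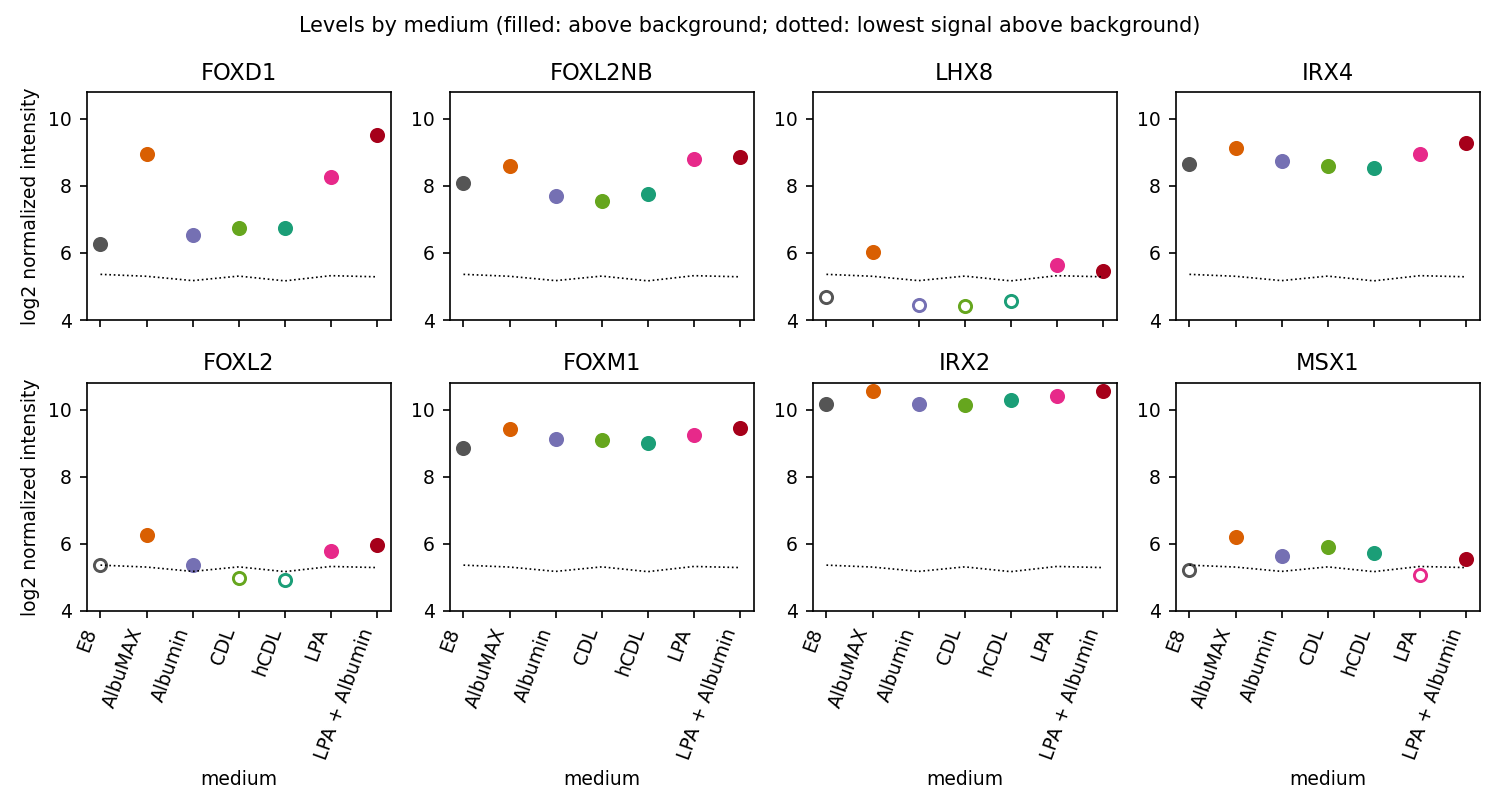
Log2 normalized intensity of 8 members by medium, 1 point per array, filled where the probe was above background; the dotted line joins each array's lowest signal above background. FOXD1 runs from 6.28 in E8 to 9.52 in LPA + Albumin, and LHX8 is filled only in AlbuMAX, LPA and LPA + Albumin.

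The other Iroquois genes pattern the neural plate and lie in clusters. IRX4, IRX2 and IRX1 form one on chromosome 5, with starts 864.7 kb and 844.2 kb apart. IRX2 stood at 10.17 in E8, 10.16 in Albumin, 10.15 in CDL, 10.27 in hCDL, 10.42 in LPA, 10.56 in AlbuMAX and 10.56 in LPA + Albumin. Its LPA difference of 0.33 (SE 0.0952) narrowly missed the threshold (limma adjusted p = 0.0513). For IRX1 the difference was 0.40 (SE 0.15, limma adjusted p = 0.119) and for IRX3, from the second cluster, 0.25 (SE 0.204, limma adjusted p = 0.477). In IRX1, IRX2, IRX3 and IRX4 both LPA arrays and AlbuMAX lay above all 4 remaining arrays. For IRX3 the gap was small, with 6.14 in LPA against 6.05 in E8. Of all named genes, 17.8% had both LPA arrays above those 4 and 26.6% had AlbuMAX above them. The share with both was not counted. IRX5 was above background only in hCDL, so it has no measured LPA difference.

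Over the whole set, both LPA arrays lay above the 4 arrays without LPA in 13 members, or 28.3%, against 17.8% of all named genes. Of these 13, 10 were above background on all arrays. Both LPA arrays lay below in 3 members, or 6.52%, against a background of 20.9%. Of these 3, only HOXC6 was above background on all arrays, since FOXA2 was so in Albumin alone and FOXR1 on none of the arrays ranked here. AlbuMAX, which had no part in that model, lay above the same 4 arrays in 23 members, 50% against 26.6% of all genes, and below in 6, 13% against 32.9%. Of the 23, 14 were above background on all arrays. FOXR1, LHX8, FOXA1 and HOXD3 are among the others and entered the set only through arrays with LPA or AlbuMAX, so part of this count follows from the filter. The shares of all genes limited in the same way were not counted. The LPA and AlbuMAX counts share the same 4 arrays. LPA against E8 and LPA + Albumin against Albumin share no array. Among the 24 members above background on these 4 arrays, 14 were higher in both (58.3%), 5 lower in both (20.8%) and 5 went opposite ways, against 31.7%, 38.5% and 29.7% of 6393 such genes. The counts over 46 members cover those that passed the limit of detection, some through 1 array only. With no filter, 54.1% of all 133 members had a positive LPA coefficient, against 47.5% of all genes, in place of 73.9% and 46%.

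**Figure D3:**
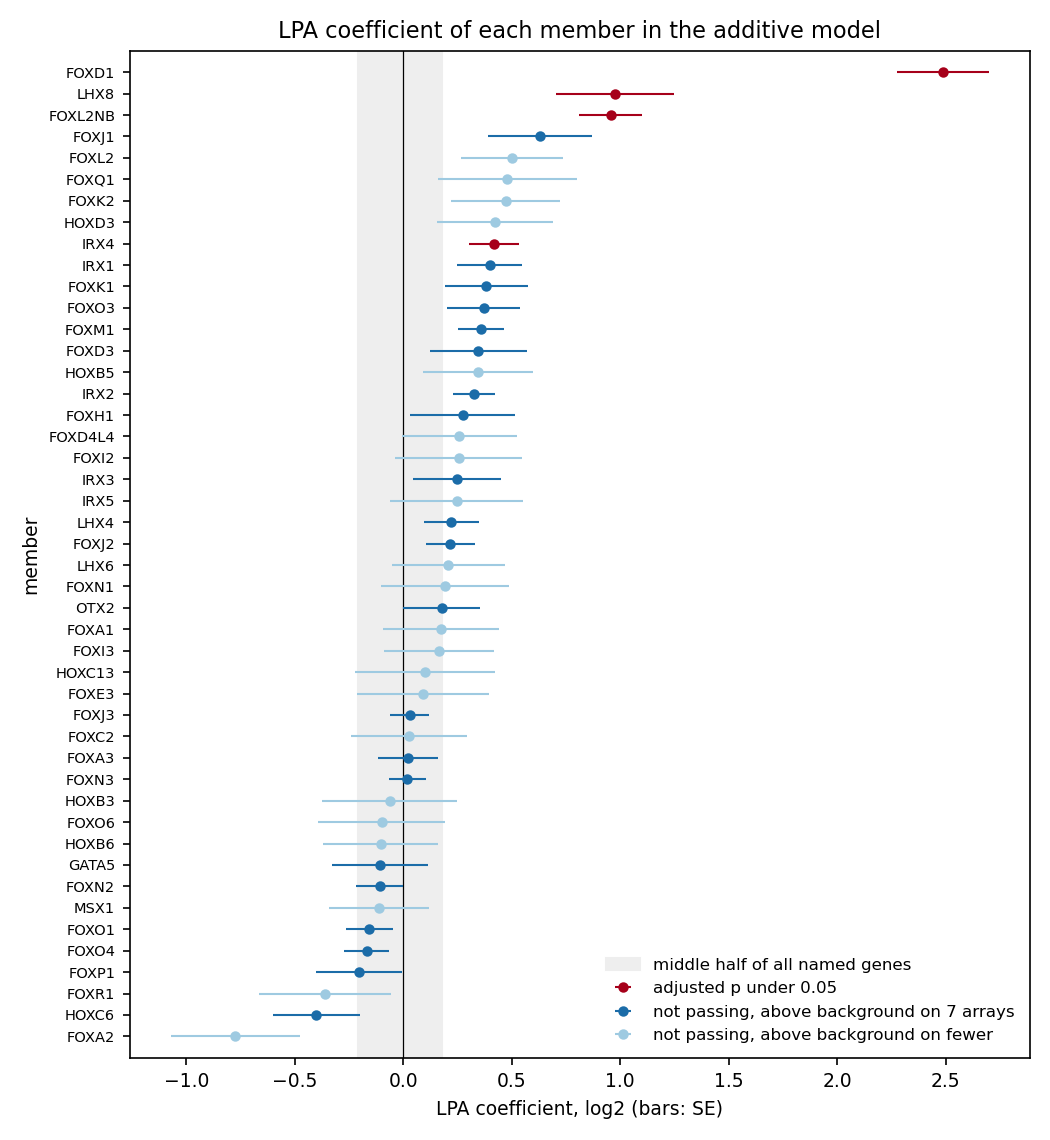
LPA coefficient of each of the 46 members in the additive model (log2; bars are SE), with the middle 50% of all named genes shaded. FOXD1 at 2.49 stands apart from the rest, and FOXA2 at -0.78 is the lowest.

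Several members with known roles in the pluripotent or dividing cell did not pass for LPA. FOXM1, which drives mitotic genes, stood at 8.84 in E8, 9.11 in Albumin, 9.10 in CDL, 8.99 in hCDL, 9.23 in LPA, 9.43 in AlbuMAX and 9.44 in LPA + Albumin, with an LPA difference of 0.36 (SE 0.106, limma adjusted p = 0.0529). E8 was its lowest array on this probe. On a second FOXM1 probe, also above background on all arrays, Albumin (7.88) and CDL (8.02) lay below E8 (8.11). There AlbuMAX minus E8 was 0.39, against 0.59 on the first. FOXJ1, the factor of motile cilia, stood at 5.66 in E8, 5.46 in Albumin, 5.43 in CDL, 5.93 in hCDL, 6.41 in LPA, 6.17 in AlbuMAX and 5.97 in LPA + Albumin, and its LPA difference was 0.63 (SE 0.24, limma adjusted p = 0.123). The hCDL and LPA + Albumin arrays nearly met.

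OTX2, which patterns the forebrain and also acts in primed pluripotent cells, had 8.19 in E8, 8.14 in Albumin, 7.77 in CDL, 8.33 in hCDL, 8.54 in LPA, 8.53 in AlbuMAX and 8.15 in LPA + Albumin. The LPA + Albumin array was within 0.01 of Albumin, while LPA and AlbuMAX were the highest arrays and CDL the lowest. The levels of FOXD3, a factor of neural crest and of mouse epiblast, were 5.63 in E8, 6.0 in Albumin, 6.17 in CDL, 6.0 in hCDL, 6.28 in LPA, 5.75 in AlbuMAX and 6.05 in LPA + Albumin. E8 was lowest and the LPA and CDL arrays highest. FOXH1, the partner of SMAD proteins in Nodal signalling, ranged from 5.48 in Albumin to 6.08 in LPA + Albumin, with 5.79 in E8, 5.57 in CDL, 5.83 in hCDL, 5.74 in LPA and 5.84 in AlbuMAX. Its LPA and non-LPA arrays overlapped.

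The FOXO factors, which are held out of the nucleus by insulin and AKT signalling, did not pass. FOXO1 stood at 9.15 in E8, 9.12 in Albumin, 8.91 in CDL, 8.98 in hCDL, 9.10 in LPA, 8.92 in AlbuMAX and 8.85 in LPA + Albumin. For FOXO3 the LPA difference was 0.37 (SE 0.168, limma adjusted p = 0.193), with LPA minus E8 at -0.055 and LPA + Albumin 1.74-fold above Albumin. FOXO3 passed when E8 or LPA was left out, and both of these leave only LPA + Albumin minus Albumin. FOXO4 ranged over 0.32 and FOXN2 over 0.32 on the log2 scale. FOXN3 and FOXJ3 varied least among all, staying between 11.05 and 11.30 and between 10.03 and 10.15.

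**Figure D4:**
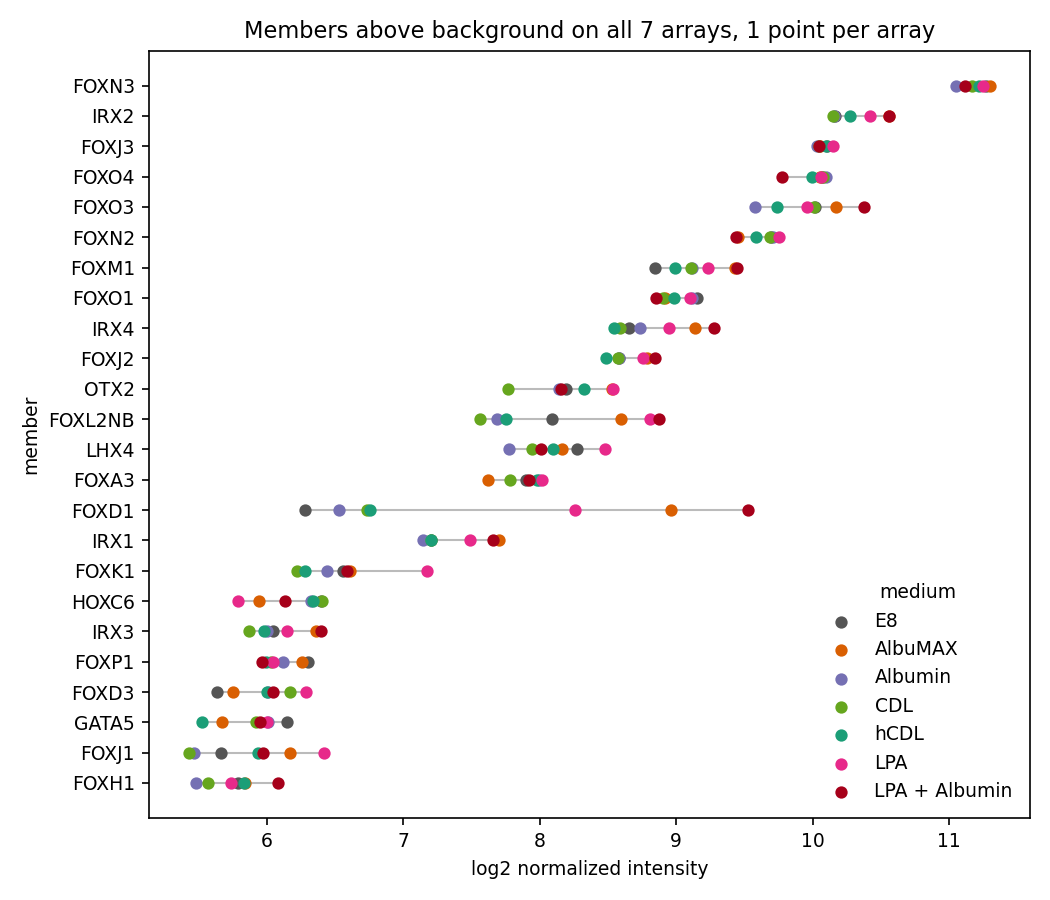
Log2 normalized intensity of the 24 members above background on all 7 arrays, 1 point per array and medium; levels of different probes are not comparable, so only the spread along each line can be read. FOXD1 spans 3.24 and FOXL2NB 1.31, while FOXJ3 spans 0.12.

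The endoderm factors of the FOXA group, which open chromatin in liver and gut progenitors, did not pass. FOXA3 ranged from 7.62 in AlbuMAX to 8.01 in LPA, with 7.90 in E8, 7.99 in Albumin, 7.78 in CDL, 7.98 in hCDL and 7.92 in LPA + Albumin. FOXA2 was above background only in Albumin, at 5.65, against 5.04 in E8, 4.85 in CDL, 4.89 in hCDL, 4.71 in LPA, 4.51 in AlbuMAX and 4.43 in LPA + Albumin. Its LPA difference of -0.78 (SE 0.297) had a limma adjusted p of 0.124, and the lower values are all below the limit of detection. GATA5, a factor of heart and gut endoderm, stood at 6.15 in E8, 6.01 in Albumin, 5.92 in CDL, 5.52 in hCDL, 6.0 in LPA, 5.67 in AlbuMAX and 5.95 in LPA + Albumin. It was highest in E8 and lowest in hCDL, and its LPA and non-LPA arrays overlapped.

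HOX genes assign position along the body axis. HOXC6, of the thorax, had 6.39 in E8, 6.32 in Albumin, 6.40 in CDL, 6.33 in hCDL, 5.78 in LPA, 5.94 in AlbuMAX and 6.13 in LPA + Albumin. The LPA and AlbuMAX arrays lay below the rest, but the LPA difference of -0.40 (SE 0.201) did not pass (limma adjusted p = 0.232). A second HOXC6 probe, above background on 2 arrays, ran the other way, with an LPA coefficient of 0.33. HOXD3 was above background only in AlbuMAX (5.61) and LPA + Albumin (5.67). HOXB5 was above background in Albumin, LPA and LPA + Albumin, and HOXB3, HOXB6 and HOXC13 on 1 to 4 arrays with overlapping groups.

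Against E8, AlbuMAX was at least 1.5-fold higher in 6 members and lower in 0, where 5.59% of all genes were higher and 3.78% lower. FOXD1 was 6.42-fold and FOXM1, on its brightest probe, 1.5-fold higher. FOXL2 was at least 1.86-fold higher, MSX1 at least 1.79-fold, FOXR1 at least 1.61-fold and LHX8 at least 1.6-fold. The bounds arise because E8 was not above background for those 4 genes. MSX1, a homeobox target of BMP signalling, stood at 5.22 in E8, 5.62 in Albumin, 5.91 in CDL, 5.74 in hCDL, 5.08 in LPA, 6.21 in AlbuMAX and 5.54 in LPA + Albumin. AlbuMAX was its highest array, and E8 and LPA were not above background. FOXR1 was above background only in AlbuMAX, at 6.05, against 4.66 in E8, 4.63 in Albumin, 4.68 in CDL, 4.42 in hCDL, 4.23 in LPA and 4.34 in LPA + Albumin.

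In LPA, 5 members were at least 1.5-fold above E8 and 1 below, against 4.37% and 2.63% of all genes. FOXD1 was 3.94-fold, FOXJ1 1.68-fold, FOXL2NB 1.65-fold, FOXD3 1.57-fold and FOXK1 1.53-fold higher, and HOXC6 was 1.53-fold lower. FOXK1, a repressor of autophagy genes, stood at 6.56 in E8, 6.44 in Albumin, 6.22 in CDL, 6.28 in hCDL, 7.17 in LPA, 6.61 in AlbuMAX and 6.59 in LPA + Albumin, so the LPA array alone was high. LPA + Albumin was 1.5-fold or more above E8 in 5 members and below in 0, against 7.34% and 5.12%: FOXD1 by 9.47-fold, FOXL2NB by 1.72-fold, IRX4 by 1.55-fold, FOXM1 by 1.52-fold and FOXL2 by at least 1.51-fold.

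LPA + Albumin set against Albumin, a comparison that shares no array with LPA against E8, gave 5 members higher and 0 lower, where 7.89% and 5.14% of all genes differed. They were FOXD1 at 7.98-fold, FOXL2NB at 2.28-fold, FOXO3 at 1.74-fold, FOXH1 at 1.52-fold and FOXL2 at 1.51-fold. Set against LPA alone, LPA + Albumin was 2.4-fold higher in FOXD1 and 1.5-fold lower in FOXK1, 1 member each way where 2.78% and 1.59% of all genes differed.

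Against E8, 1 member was shown to pass 1.5-fold in Albumin and the lipid mixtures without LPA. Albumin had 0 members past it (0.727% of all genes higher, 1.37% lower) and CDL had 0 (1.52% higher, 1.43% lower). In hCDL 0 were higher and 1 was lower, against 0.752% and 0.927%, namely GATA5 at 1.54-fold lower. With median centring GATA5 differed by -0.51, under 1.5-fold, and 1 other member was higher. In Albumin, CDL and hCDL, 13, 17 and 15 of the 46 members were above background on neither array, and 9, 3 and 5 more had only a bound, so these members were not shown to lie within 1.5-fold. As a gauge of scatter, the LPA difference with albumin minus that without it, scaled to a single difference by the square root of 2, passed 1.5-fold in 7 of the 46 members (15.2%) and in 5.86% of all genes. It did so in 2 of the 24 members above background on all arrays and in 5 of the other 22. FOXD1 was among the 7, with an LPA difference of 1.98 without albumin and 3.00 with it.

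**Figure D5:**
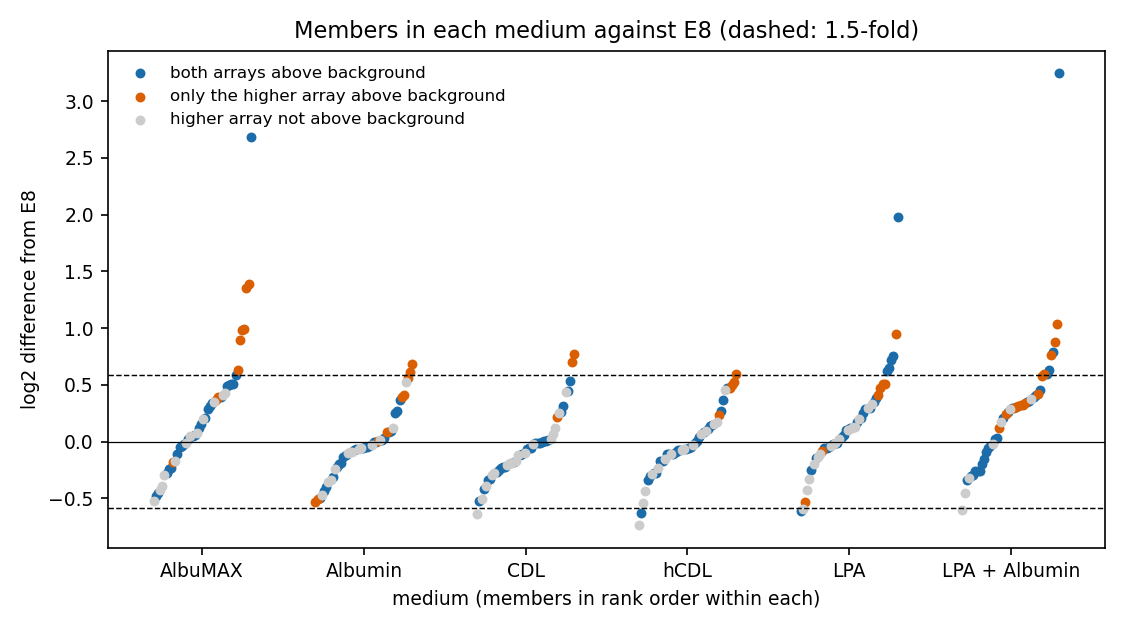
Log2 difference of each member from E8 in each medium, in rank order, coloured by whether both arrays, only the higher array or not even the higher array was above background; dashed lines mark 1.5-fold. FOXD1 is the top point in AlbuMAX, LPA and LPA + Albumin, and no member above background on both arrays reaches the upper line in Albumin, CDL or hCDL.

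In the tested models, 0 of 46 members passed for albumin, where 0.1% of all named genes did, 0 for a lipid mixture, where 0% did, and 0 for AlbuMAX, Albumin and LPA + Albumin against the other 4 media, where 0.0877% did. The smallest limma adjusted p among members was 0.693, 0.99 and 0.67. At an unadjusted limma p under 0.05, 3 members were higher and 1 was lower with albumin, 2 were higher with a lipid mixture and 3 were higher in the albumin media. Over all 7982 named genes, 251 were higher and 246 lower with albumin. With a lipid mixture 142 were higher and 159 lower, and in the albumin media 240 and 283. The albumin coefficient of FOXD1 was 0.76 (SE 0.212, limma adjusted p = 0.693), and that of LHX4, a factor of pituitary and motor neurons, was -0.49 (SE 0.128, limma adjusted p = 0.693). LHX4 stood at 8.27 in E8, 7.77 in Albumin, 7.94 in CDL, 8.10 in hCDL, 8.48 in LPA, 8.16 in AlbuMAX and 8.01 in LPA + Albumin. Each albumin array was lower than its counterpart without albumin.

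Where a member had more than 1 probe above background, which held for 7 genes, the brightest represented it. The LPA coefficients of 2 probes were alike for FOXM1 (0.36 and 0.43), FOXO3 (0.37 and 0.41) and OTX2 (0.18 and 0.21). They differed in sign for FOXP1, at -0.20 for the brightest probe and 0.68 for the next. FOXD4L4 has near-identical copies in the genome, so its probe may take signal from them.

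Lineage factors outside these families were looked at as a further list. Of 14 measured, 8 were above background on all arrays. With LPA 2 rose and 4 fell, where 6.64% of all named genes rose and 4.32% fell. The median was -0.33 where that of all genes was -0.03. It lies between ISL1 and RUNX2, above background on 2 and 3 arrays, so it rests on dim signals. TWIST1, a bHLH factor of mesenchyme and neural crest, was not above background in E8, Albumin, CDL or hCDL and stood at 8.66 in LPA, 10.07 in LPA + Albumin and 9.37 in AlbuMAX, at least 17.2-fold higher with LPA (limma adjusted p = 1.08e-05). ID1, a dominant-negative bHLH target of BMP signalling, rose by 0.41 (SE 0.107, limma adjusted p = 0.0322). EBF2, HEY1 (a Notch target), HESX1 (a forebrain repressor) and ID2 fell by 1.46, 0.92, 0.80 and 0.55 (limma adjusted p = 0.00677, 0.0171, 0.0315 and 0.0232).

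Polycomb subunits, which hold many lineage promoters silent, did not pass: of 17 measured, 0 rose and 0 fell with LPA, and their median was -0.01. Among 9 measured HOX cofactors and genes of retinoic acid, a signal that activates HOX clusters, 1 rose and 2 fell. Of all named genes, 6.64% rose and 4.32% fell. ALDH1A3, which makes retinoic acid, rose by 1.26 (SE 0.143, limma adjusted p = 0.000313), from 7.53 to 7.69 on the arrays without LPA to 8.63 in LPA, 9.17 in LPA + Albumin and 9.05 in AlbuMAX. Its relative ALDH1A1 fell: it was above background on the 4 arrays without LPA, at 5.83 to 6.34, and on neither LPA array (limma adjusted p = 0.00241). PBX2, a HOX cofactor, fell by 0.45 (SE 0.12, limma adjusted p = 0.0346).

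NES, which codes for the intermediate filament nestin of neural progenitors, moved with the genes above, from 9.74 to 9.94 on the arrays without LPA to 11.20 in LPA and 11.59 in LPA + Albumin (limma adjusted p = 1.85e-05). Of the other measured neuroectoderm markers, MAP2 and NCAM1 did not pass, and PAX6 was not above background. CER1, an endoderm marker, rose as well (limma adjusted p = 0.00103), while FOXA2 and GATA6 did not. The summed level of the 3 measured neuroectoderm markers was 9.92 to 10.06 without LPA and 11.28 to 11.64 with it. For 2 measured endoderm markers it was 5.70 to 6.21 and 6.85 to 7.32, and for 2 measured fibroblast markers, TWIST1 and PDGFRB, 6.78 to 7.03 and 9.03 to 10.35. Without LPA the endoderm sum is mostly signal below the limit of detection, since CER1 and FOXA2 were each above background on 1 such array. In each of these 3 lists only 1 gene passed for LPA: NES, CER1 and TWIST1. Not all members went the same way: NCAM1 had an LPA coefficient of -0.45, and FOXA2 was not above background on either LPA array. Of the fibroblast markers with a named probe, 2 of 4 were not above background on any array. The part of these markers in the LPA results of the lineage genes was not tested.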

How the data were processed

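Gene expression of H1 cells was measured on 7 Illumina bead arrays, 1 per medium, grouped by the medium in the labels. Per the file headers, the deposited main table holds an unnormalized intensity and a detection p-value for each of 33866 probes and array; the scanner software is not given in the sources used. A second deposited table holds the authors' processed intensity values, found to be linear and quantile normalized (each array within 2.93% of the average distribution), and served as an alternative. Of the probes, 19221 had 1 symbol in the platform annotation, 3 had several and 14642 are unnamed here; 19194 were looked up through Entrez identifiers, which changed 0 symbols.

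Intensities were background-corrected (normexp, offset 16, controls inferred from detection p-values), then quantile normalized and logged (log2) using limma 3.58.1 in R 4.3.3. The brightest probe above background represented each gene, giving 7982 genes. limma with an intensity trend and Benjamini-Hochberg adjustment tested LPA, albumin and lipid mixture in an additive model on 6 arrays, and the 3 albumin media against the other 4. Where the dimmer side was not above background, it was raised to that array's lowest signal above background, and the fold is given as at least that value. The steps were tested on simulated data. Alternatives changed background, normalization, filter, probe, prior and arrays. Values on all arrays are given for members that passed a test, for up to 5 highest and 5 lowest per medium at 1.5-fold and for a fixed set of well-known factors. They are also given for others that the text singles out after their values were seen. Of the 3 brightest members, IRX2 is given on all arrays, and FOXN3 and FOXJ3 by range. The members and lists were chosen with earlier results of these data known, so they give no independent support. p-values cover only the spread between these arrays, and nothing says whether cultures were separate.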

Additional observations from a re-analysis of the deposited data

How the results depend on the processing

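The count of members that rose with LPA stayed at 4 without background correction, with an offset of 50, with median centring, with the submitters' values, at a detection limit on 2 arrays and at a detection p of 0.05, and these were the same 4 genes. It was 6 with cyclic loess and with the mean of a gene's probes, where FOXM1 and IRX2 also passed, 3 with no filter, 2 without the intensity trend (FOXD1 and LHX8) and 0 with AlbuMAX added as a further albumin medium, where 3 were higher at an unadjusted limma p under 0.05 and 0 of all genes passed. Leaving out each array gave 1 to 4 members; without Albumin or LPA + Albumin only FOXD1 passed. FOXD1 passed under all alternatives but the added AlbuMAX array (limma adjusted p = 0.379). The alternatives that leave out an array are not all separate. Leaving out E8 or LPA gives the same LPA coefficient, as does leaving out Albumin or LPA + Albumin. Leaving out CDL or hCDL does not change it. FOXL2NB was lost without the trend (limma adjusted p = 0.0584), without Albumin (0.0764), without LPA + Albumin (0.0911) and with AlbuMAX added (0.379). Leaving out each array gave 0 to 1 members that fell with LPA (FOXA2, without E8 or LPA), 0 to 1 that rose with albumin (FOXD1, without E8 or Albumin) and 0 to 1 that rose in the albumin media (FOXD1, without Albumin). Over all genes, 530 rose and 345 fell with LPA, a share of 60.6% higher that was 71.3% with cyclic loess (597 and 240); the counts were 507 and 215 with median centring, 363 and 149 with no filter, 143 and 19 without the trend, 138 and 19 without Albumin, 126 and 25 without LPA + Albumin.

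The counts at 1.5-fold against E8 shrank where background was left in. For AlbuMAX 6 members became 1 without background correction, 1 with an offset of 50 and 1 in the submitters' values; for LPA 6 became 1, 2 and 1; for LPA + Albumin 5 became 2, 3 and 2; and for hCDL 1 became 0 in each, while median centring gave 1 higher and 0 lower there in place of 0 and 1. The plain difference, an alternative chosen after seeing the data, gave 2 for Albumin, 2 for CDL, 2 for hCDL and 8 for LPA + Albumin. HOXC6 in LPA against E8 turned from -0.61 to 0.0609 with the mean of its probes, of which the second ran the other way. Dim members are limited by their signal over background. No paired analysis was possible because each medium has 1 array.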
